A study of Miniopterus schreibersii with 14 samples.

Results

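The middle part of the early limb bud was compared with the 2 parts beside it, the anterior (thumb-side) and the posterior (little-finger-side) part, in embryos of the bent-wing bat Miniopterus schreibersii at stage S14. Of the 14 messenger RNA libraries of the series, 6 belong to this comparison: the forelimb bud cut into anterior, middle and posterior parts and the hindlimb bud cut into the same parts. The middle score of a limb was set against the mean of the anterior and posterior scores of that limb, so that 2 middle libraries stand against 4 outer ones. Each part had 1 library, the labels do not say how many embryos went into it, and the 2 limbs are the only repeats. The p-values of the middle comparison therefore rest only in part on how far differences between parts recurred between forelimb and hindlimb. This includes the anterior minus posterior difference as well as the middle one. The larger weight in the error came from the spread of other components. A component whose difference was unequal in size between the limbs could thus still be called. Whether forelimb and hindlimb came from the same embryos is not stated. Part, library and possibly embryo change together here and cannot be told apart.

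A limb bud is a mound of mesenchyme, loose embryonic connective tissue, under a cap of ectoderm. The ectodermal ridge at its tip sends growth signals into the mesenchyme, and a signalling region at the posterior margin patterns the bud from the thumb side to the little-finger side. The middle of the bud gives rise to the central digits, which in the bat forelimb become the long struts of the wing. As the bud grows, cartilage condenses inside it and forms the digit skeleton.

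The values are scores per assembled component, that is, read counts that the authors normalized and rounded to whole numbers. A component is a transcript, or a piece of one, put together from the reads. The table names components by assembly number and pairs none with a gene: 0 identifiers matched a table of 22775 named genes of this species. No component can thus be given a gene name, a genome position or a known function, and the RNA of the expected limb tissues could not be checked against marker genes. Of 64618 components, 15693 averaged 20 or more across the 6 S14 libraries and were compared, and these held 98.7% of all S14 score. The lowest mean kept was 20 and the highest left out was 19.8. The 6 libraries held 4951054 to 6693330 reads, and 1 read was worth a score of 1.60 to 2.23.

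Over the whole profile, the library closest to the forelimb middle part was the hindlimb middle part. Across components, the log2 scores of the forelimb middle part had a Pearson r of 0.971 with it, barely above the r of 0.970 with the posterior forelimb part and 0.957 with the anterior forelimb part. The hindlimb middle part was closer to its own neighbours, with an r of 0.978 to the anterior and 0.975 to the posterior hindlimb part. Its r with the posterior and the anterior forelimb part was 0.961 each, below that with the forelimb middle. The anterior forelimb library stood somewhat apart from the rest, with r values from 0.945 to 0.961. Components are not independent replicates, and these r describe the libraries only.

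A small set of components differed between middle and outer parts in the same way in both limbs. Among those called, ranked by the smaller of their 2 limb differences, comp25452_c0 and comp7719_c1 led the higher ones. They were highest in the middle and nearly missing from the posterior part of both limbs. The anterior part lay between, but for comp7719_c1 in hindlimb it was about as low as the posterior part (8 against 6). In forelimb, comp25452_c0 scored 29 in the anterior, 110 in the middle and 0 in the posterior part. In hindlimb it scored 11, 83 and 0 in the same order. Both middle libraries thus lay above all 4 outer libraries, and both posterior libraries were at 0. The outer libraries averaged 10, so the component reached the minimum mean of 20 only through the middle libraries, and its difference follows in part from that filter.

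These scores of comp25452_c0 rest on 100 reads in the 2 middle libraries and 20 in the 4 outer ones. At equal depth that is a ratio of 11.2 (exact 95% interval 6.90 to 19.2, counting error only), with 9.03 in forelimb (4.90 to 17.9) and 14.7 in hindlimb (6.54 to 39.0). On the log2(score + 1) scale, the middle exceeded the outer mean by 4.34 in forelimb and 4.60 in hindlimb. With scores of 0 among them, this size depends on the pseudocount: the mean of the limbs was 5.49 with a pseudocount of 0.25 and 3.22 with one of 5. In limma, a linear model with shrunken variances, the mean difference was 4.47 (SE 0.56, Benjamini-Hochberg adjusted p = 0.0046).

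Component comp7719_c1 scored 40 in the anterior, 91 in the middle and 2 in the posterior forelimb part. Its hindlimb scores were 8, 102 and 6. The middle was again the highest part of each limb, and in forelimb the anterior part stood well above the posterior one. With an outer mean of 14, it too passed the filter only through the middle libraries. The read ratio of middle to outer was 5.15 in forelimb (2.98 to 9.24) and 14.0 in hindlimb (6.83 to 32.5). In limma the mean log2 difference was 3.38 (SE 0.60, adjusted p = 0.041).

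The assembly holds a further piece under the number of comp7719_c1, which did not share this pattern. It scored 141, 238 and 100 in anterior, middle and posterior forelimb, and 85, 212 and 243 in hindlimb. The middle was highest in forelimb only, since in hindlimb the posterior part exceeded it.

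In the opposite direction, comp7498_c0 and comp9848_c0 led by the same ranking. Component comp7498_c0 scored 36 in the anterior, 4 in the middle and 106 in the posterior forelimb part. Its hindlimb scores were 184, 21 and 375. All 3 hindlimb parts exceeded their forelimb counterparts, and in each limb the posterior part was highest and the middle a small share of either neighbour. The forelimb middle library held 2 reads of it, so the forelimb ratio of outer to middle, 21.0, is poorly bounded (5.62 to 176). The hindlimb ratio was 13.4 (7.23 to 28.3). Despite the different levels, the log2 differences of the limbs were -3.65 and -3.58, with a mean of -3.62 (SE 0.29, limma adjusted p = 0.00018). The middle libraries averaged 12.5, so this component passed the filter only through the outer libraries, where it was high.

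Component comp9848_c0 was highest in the anterior part of both limbs, with a dip in the middle. It scored 636 in the anterior, 26 in the middle and 53 in the posterior forelimb part. Hindlimb scores were 1425, 117 and 680. The middle was lowest in both limbs, by a wide margin against the anterior part, while in forelimb the posterior part was also low. The mean log2 difference was -2.92 (SE 0.35, limma adjusted p = 0.0044).

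**Figure D1:**
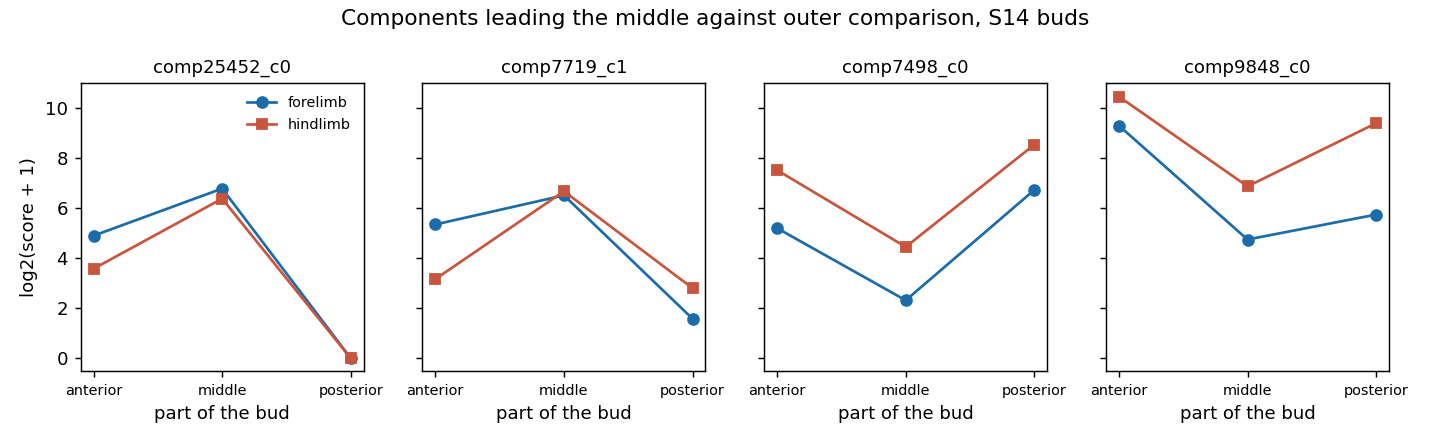
Score of the 4 leading components in the anterior, middle and posterior part of the S14 bud, on the log2(score + 1) scale, with 1 library per point (forelimb circles, hindlimb squares). comp25452_c0 and comp7719_c1 peak in the middle in both limbs, and comp7498_c0 and comp9848_c0 dip there in both.

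How firm these 4 calls were depended on what counts as spread. In the model used here, anterior and posterior parts are separate terms, so a steady slope from anterior to posterior is not counted as error. When the outer parts of a limb were taken as repeats of each other, when limb was left out of the model, or when no filter was applied, none of the 4 stayed called (limma adjusted p from 0.102 to 0.9998 in these fits). Over the settings that kept all 6 libraries, the limma adjusted p ran from 0.00031 to 0.727 for comp25452_c0 and from 0.013 to 0.727 for comp7719_c1. It ran from 3.0e-07 to 0.727 for comp7498_c0 and from 0.0012 to 0.9998 for comp9848_c0. Fits without 1 outer library took the spread wholly from other components, so their p-values are left out. No setting changed the direction of any of them. The choice largely fixes this, since the middle of each had to lie outside both neighbours in both limbs. Upper-quartile scaling ended the calls of comp7719_c1 and comp9848_c0, robust shrinkage that of comp9848_c0, and median-centring or a pseudocount of 0.25 that of comp7719_c1. Against the anterior part alone, comp25452_c0 and comp7719_c1 differed by 2.35 and 2.34 on the log2 scale and were not called, and against the posterior part alone comp9848_c0 differed by -1.76 and was not called. With the forelimb middle library left out, comp25452_c0 and comp7719_c1 were not called either, and comp7719_c1 was also not called with the hindlimb middle library left out.

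In all, limma called 36 components, 0.229% of those tested. Of these, 16 (0.102%) were higher and 20 (0.127%) lower in the middle. An unadjusted limma p under 0.05 was found for 949 of the 15693 tested components. Components without any difference also pass that threshold, at a share of 0.05. In every one of the 36, the middle library lay outside both outer libraries in both limbs, for which the test selects, against 21.3% of all tested components. Through the middle libraries alone 2 of the 16 had passed the filter, and through the outer libraries alone 4 of the 20. Mean log2 differences ran from 0.76 to 4.47 among those higher and from -3.62 to -0.77 among those lower.

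Components called higher were for the most part abundant ones with a modest difference. Their mean S14 score had a median of 1122, against 211 for all components tested, and 13 of the 16 had a mean of at least 100. The median log2 difference was 1.19 in forelimb and 1.17 in hindlimb, a little over 2-fold. The gap between the limbs had a median of 0.38 and was at most 0.67, against a median of 0.35 over all components. This gap enters the error of the test, so it is no independent check of the calls. Components called lower had a median score of 282 and wider differences, with medians of -1.62 in forelimb and -1.69 in hindlimb. Their gap between the limbs had a median of 0.73, above the 0.35 of all components, and was at most 2.63. Abundance was in part selected for by the test, since abundant components had smaller errors (SE 0.13 for comp95_c0 against 0.56 for comp25452_c0). The called share, both directions together, rose from 0.092% at mean scores of 20 to under 50 to 0.317% at 500 or more.

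**Figure D2:**
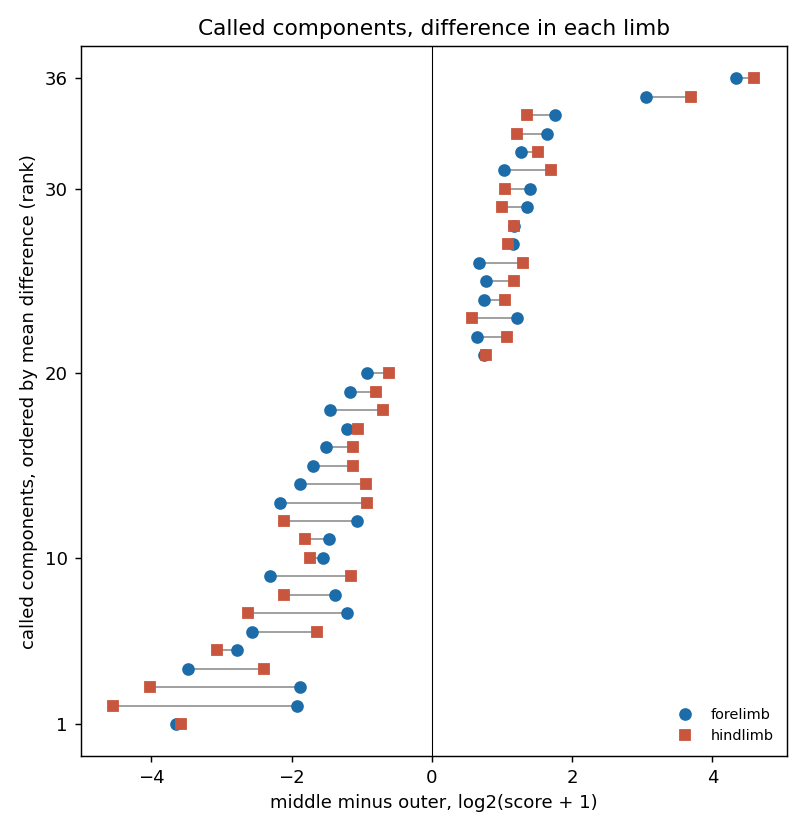
Middle minus outer difference of the 36 called components on the log2(score + 1) scale, one component per line, with forelimb as circles and hindlimb as squares, ordered by their mean. The 16 higher components except for the top 2 lie between 0.57 and 1.76 in either limb, while the 20 lower ones spread from -4.55 to -0.61.

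The number of calls moved with the processing. It was 6 with upper-quartile scaling (3 higher, 3 lower) and 18 with median-centred libraries (5 higher, 13 lower), all among the 36, so the balance of higher to lower calls moved with scaling. It was 59 with robust shrinkage and 63 with voom on recovered reads, of which 29 and 34 were among the 36. It was 0 with the outer parts of a limb as repeats, 0 without limb in the model and 0 with no filter. Leaving out 1 outer library gave 251 (anterior forelimb), 90 (posterior forelimb), 278 (anterior hindlimb) and 125 (posterior hindlimb), in fits with 1 residual degree of freedom. Without the forelimb middle library 87 were called and without the hindlimb middle library 140, in fits where the middle rests on 1 limb. Those without a middle library shared 20 and 24 with the 36, and those without an outer library 33 to 36.

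Beyond these components the 2 limbs shared little of what sets the middle apart. The middle minus outer differences of forelimb and hindlimb had an r of 0.008 across the 15693 components, which share no library between the limbs. Among the 10262 components that averaged 100 or more it was -0.029. The anterior minus posterior difference, taken from the same buds, had an r of 0.303 between the limbs and 0.432 among the abundant components. Only 44.2% of components had the same sign of middle minus outer in both limbs. Over all components this share was 44.5% with upper-quartile scaling and 43.6% with median-centred libraries. As deposited, it was 49.2% at mean scores of 20 to under 50 and 38.5% at 500 or more. In that highest class r was -0.072, with a median difference of -0.056 in forelimb and 0.054 in hindlimb.

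**Figure D3:**
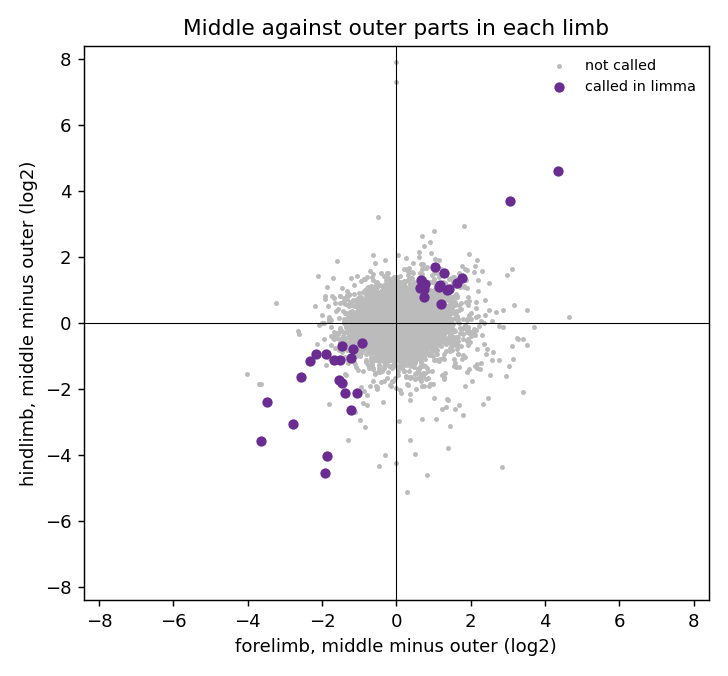
Middle minus outer difference in forelimb (x axis) and hindlimb (y axis), log2(score + 1) scale, one point per component, with the 36 called ones in purple. The cloud has no slope (r = 0.008), and called components lie along the diagonal at both ends.

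The root mean square of the middle minus outer difference was 0.50 in forelimb and 0.43 in hindlimb, where counting alone gives 0.27 in each. The remainder holds any difference between libraries or embryos as well as between parts. For components averaging 500 or more, it was 0.30 and 0.21 against 0.08 from counting. In the forelimb 510 components (3.25%) were at least 2-fold higher in the middle and 257 (1.64%) lower, and in the hindlimb 237 (1.51%) and 271 (1.73%). The median difference was near 0 in both limbs, at 0.00 and 0.04.

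A rule without a test gives the wider set: a difference of at least 2-fold in the same direction in each limb. It was met by 59 components (0.376%) for the higher direction and 36 (0.229%) for the lower. The smallest log2 differences inside the rule were 1 among the higher and -1.01 among the lower ones. Opposite directions were met by 47 components (0.299%) that were higher in forelimb middle and lower in hindlimb middle, and by 8 (0.051%) the other way round. With the outer reference taken as the log2 of the mean score, 40 were higher and 47 lower, so the balance turned.

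These wider sets consisted mostly of weakly expressed components. The mean score was under 100 for 46 of the 59 higher and 22 of the 36 lower ones, against 34.6% of all tested. Of the 59, 24 reached the minimum mean only because of the middle libraries, and of the 36, 16 only because of the outer ones, so their difference follows in part from the filter. Between mean scores of 20 and 50, counting alone gives a root mean square of 0.48 in forelimb and 0.47 in hindlimb, against the observed 0.74 and 0.66. Of the called components, 9 of the 16 higher and 15 of the 20 lower met the 2-fold rule.

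The place of the middle among the 3 parts was counted for each limb. The middle lay between the anterior and posterior scores in 27.8% of components in forelimb and 29.01% in hindlimb. It was highest of the 3 in 36.5% and 40.6%, and lowest in 35.7% and 30.4%. It was highest in both limbs in 1879 components (12.0%) and lowest in both in 1457 (9.28%), but this order turned with scaling: upper-quartile scaling gave 10.2% and 12.3%, and median-centring 9.79% and 12.3%. The most frequent combination as deposited, at 16.8%, was lowest in forelimb and highest in hindlimb, and the reverse had 13.2%. Upper-quartile scaling turned that pair too, to 13.9% and 17.0%, while median-centring widened it to 20.4% and 11.8%. The middle had the same place in both limbs in 29.3% of components.

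**Figure D4:**
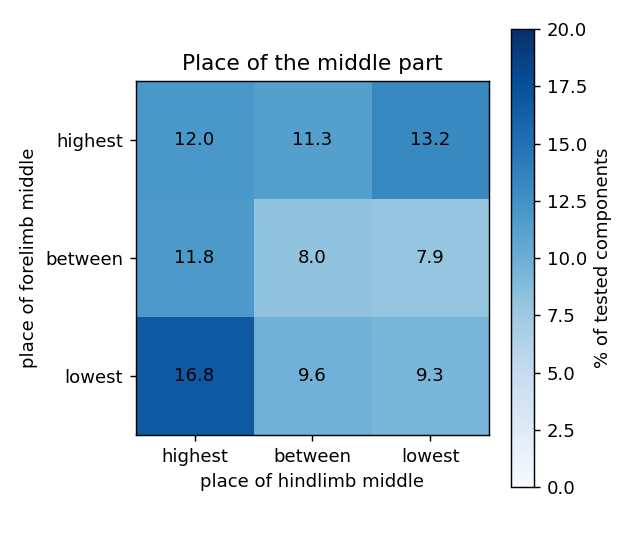
Share of the 15693 tested components by the place of the middle score among the 3 parts of the forelimb bud (rows) and of the hindlimb bud (columns), in percent. The corner with the middle lowest in forelimb and highest in hindlimb holds most, 16.8%, and the field of between in both holds 8.0%.

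The called components were next described by contrasts other than middle against outer. For 4 of the 16 higher components the anterior score exceeded the posterior one in both limbs, and for 9 it was the smaller one in both, against 28.3% and 27.3% of all components. Components comp25452_c0 and comp7719_c1 are among those with the anterior part higher, comp7719_c1 in hindlimb on only 5 reads against 4. Of the 20 lower components, 4 were higher in anterior and 7 in posterior. Hindlimb exceeded forelimb in all 3 parts for 9 of the 20 lower components, and forelimb exceeded hindlimb for 2, against 20.4% and 14.3% of all components. Both comp7498_c0 and comp9848_c0 were among those 9. Of the 16 higher components, 5 were higher in all 3 hindlimb and 5 in all 3 forelimb parts. These counts come from the same 6 libraries and are not independent of the calls. The error of the fit includes how far anterior minus posterior differed between the limbs, and how far the limb difference varied between parts. Agreement between limbs or parts is thus in part selected for.

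At S15-17, when digits and the tissue between them were dissected apart, the components called in the bud could be followed in 6 libraries that did not enter the choice. Among the 16 called higher, 8 scored above interdigital tissue in all 3 matched pairs (digit I, wing digits II-V, foot) and 1 below in all 3, against 18.0% and 10.5% of all components. Their median digit minus interdigital difference was 0.62 on the log2 scale, against 0.04 over all components. Among the 20 called lower, 3 were above and 6 below in all 3 pairs, with a median of -0.16. In the 59 components of the wider higher set, 15 were above and 3 below, with a median of 0.25. In the 36 of the wider lower set, 6 were above and 9 below, with a median of -0.16. These are descriptions of lists chosen on the S14 values, with no test. The 16 had a median S14 score of 1122 against 211 for all components, and no comparison was made at equal abundance.

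Component comp6075_c0 had the largest such difference among the called. It scored 520, 1445 and 410 in anterior, middle and posterior forelimb, and 536, 1252 and 540 in hindlimb. The middle stood above all 4 outer libraries, which lay close together. The mean middle minus outer difference was 1.43 (SE 0.16, limma adjusted p = 0.0026). Later it scored 190 in digit I against 103 in the tissue beside it, 475 against 84 in the wing and 195 against 49 in the foot. The digit was higher in each pair, with the widest gap in the wing.

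Component comp6959_c0 followed, with bud scores of 132, 504 and 166 in forelimb and 151, 562 and 314 in hindlimb. Its middle minus outer difference was 1.56 (SE 0.20, limma adjusted p = 0.0047). At S15-17 it scored 182 against 149 on the thumb side, 134 against 46 in the wing and 260 against 35 in the foot. Here the foot showed the widest gap and the thumb side hardly any.

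Among components lower in the middle, comp4463_c0 and comp2526_c0 were the most interdigital later on. Component comp4463_c0 scored 150, 69 and 174 in anterior, middle and posterior forelimb, and 1825, 267 and 1492 in hindlimb. Its outer parts were far higher in hindlimb than in forelimb, and the middle was lowest in both, with a mean difference of -1.92 on the log2 scale (SE 0.26, limma adjusted p = 0.0067). At S15-17 it scored 156 in digit I against 457, 416 in wing digits against 1399, and 154 in foot digits against 268. Component comp2526_c0 had scores of 92, 37 and 133 in forelimb and 85, 25 and 86 in hindlimb, a difference of -1.64 (SE 0.27, limma adjusted p = 0.027). Its interdigital scores of 316, 396 and 351 were each above the digit scores of 150, 110 and 158. In the fetal metacarpals and metatarsals it was nearly gone, at 1 and 0. These 4 components, and the 2 named next, were chosen after their values were seen, by the largest later difference among those called.

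The fetal libraries were compared with those of S15-17 in the same way. Both fetal libraries, metacarpals and metatarsals, lay above all 6 libraries of S15-17 for 3 of the 16 higher components and below all 6 for 2, against 19.5% and 40.5% of all components. For the 20 lower ones these counts were 1 and 13. Component comp48_c0, higher in the bud's middle by 0.97 (SE 0.14, limma adjusted p = 0.0095), had forelimb scores of 1973, 3871 and 2629 and hindlimb scores of 2548, 6143 and 2912. It was at 3667 to 12446 at S15-17 and at 25780 and 14870 in the fetal metacarpals and metatarsals. The 1 lower component that lay above all S15-17 libraries was comp9746_c0, with bud scores of 18, 2 and 58 in forelimb and 80, 10 and 40 in hindlimb and fetal scores of 179 and 180. It is one of the 4 that passed the filter only through the outer libraries.

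Some of these components were scarce after the bud stage. A mean score at S15-17 of at most 0.25 of the S14 mean was found for 3 of the 16 called higher, 2 of the 20 called lower and 10 of the 59 in the wider higher set, where 0.994% of all components had it. Component comp25452_c0 went from an S14 mean of 38.8 to 0.67 at S15-17 and 0.50 in the fetal libraries. The means of comp7719_c1 were 41.5, 1.33 and 0.50, and those of comp9848_c0 were 490, 95.8 and 7. All 3 were thus scarce by the fetal stage. A rise of at least 4 times, seen in 0.593% of all components, was found for 0 of the 16, 1 of the 20 and 2 of the 59. Stage and dissection differ together between these libraries and cannot be told apart.

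Whether the middle difference was unlike in forelimb and hindlimb was tested as an interaction. limma called 0 of 15693 components, with a smallest adjusted p of 0.453 and 1409 at an unadjusted p under 0.05. Voom on recovered reads called 0 as well. In this fit a component's own spread can come only from the anterior and posterior parts of a limb, so a slope from anterior to posterior widens its error. The larger weight in the error again came from the spread of other components. Without the filter the count was 3037, and 3003 of these averaged under 20.

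The widest gaps between limbs came from single libraries. Component comp8445_c0 scored 240 in the hindlimb middle part and 0 in the other 5 bud libraries. It held 115 reads there and 0 in the 2 outer hindlimb libraries, which is at least 98.9-fold higher with 3 reads over both as the floor. The exact 95% lower limit of the ratio, which uses no such floor, was lower, at 79.2. Component comp8689_c0 scored 156 in the hindlimb middle part and 0 in the other 5, with 75 reads, which is at least 64.5-fold higher by that floor, with a lower limit of 51.2. Both values rest on that 1 library. Through it alone both components reached the minimum mean of 20, so their gaps follow in part from the filter. At S15-17 both components were highest on the thumb side, at 32 in digit I and 25 beside it for comp8445_c0 and at 38 and 12 for comp8689_c0. Their wing digits scored 17 and 9, and their foot digits 2 and 0. The interaction was -7.91 (SE 1.62) and -7.29 (SE 1.67), each with a limma adjusted p of 0.543.

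On the forelimb side, comp13274_c0 scored 0 in the anterior, 91 in the middle and 161 in the posterior part. Its hindlimb scores were 8, 0 and 45. The forelimb middle lay between its neighbours, while the hindlimb middle lay below both. Its log2 differences were 2.85 in forelimb and -4.35 in hindlimb, which the zeros make wide: the read ratio of middle to outer in forelimb was 0.98 (0.68 to 1.39). Component comp6676_c0 had forelimb scores of 2, 79 and 18 and hindlimb scores of 16, 4 and 26, so that the middle was highest in one limb and lowest in the other. With an outer mean of 15.5, it passed the filter only through the middle libraries. The read ratio was 7.01 in forelimb (3.63 to 14.6) and 0.20 in hindlimb (0.02 to 0.79). In the fetal metacarpals and metatarsals it reached 732 and 6942. Neither interaction was called, at 7.20 (SE 3.72, limma adjusted p = 0.549) and 5.50 (SE 1.505, limma adjusted p = 0.543).

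**Figure D5:**
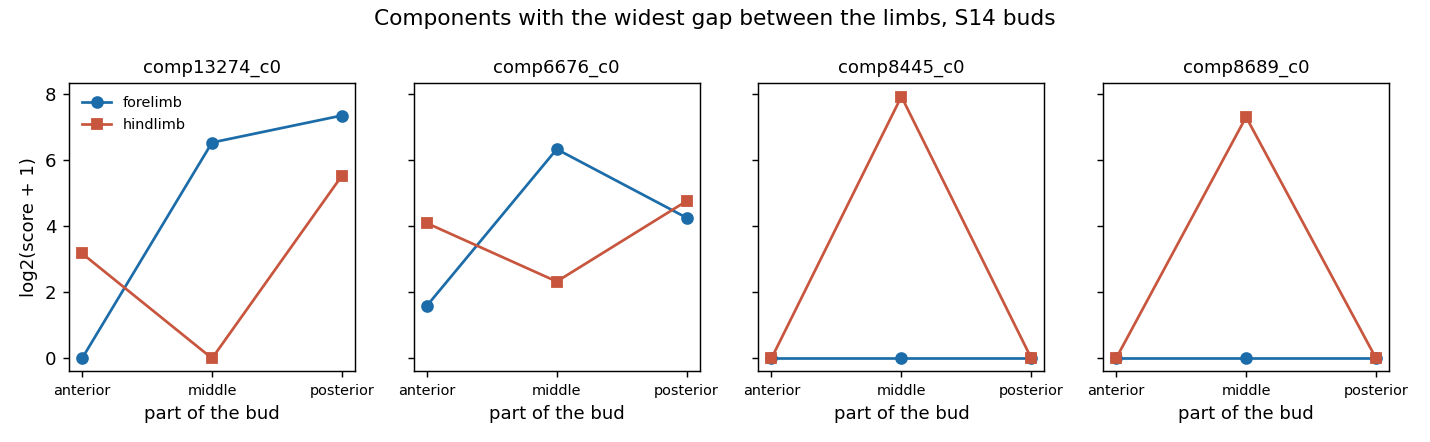
Score of the 4 components with the widest gap between the limbs in the middle minus outer difference, by part of the S14 bud, on the log2(score + 1) scale, with 1 library per point (forelimb circles, hindlimb squares). comp8445_c0 and comp8689_c0 are above 0 in the hindlimb middle library only, and comp6676_c0 peaks in forelimb middle and dips in hindlimb middle.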

How the data were processed

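Per the labels' protocols, TruSeq libraries were prepared from DNase-treated total RNA of dissected limb parts. CASAVA 1.8, RSEM and edgeR appear in the submitters' processing notes with no role stated, and assembly and counting settings are not given in the sources used here. The deposited table holds 1 score per component and library, a count normalized and rounded by the authors. For intervals and voom, reads were recovered from the step between low scores, fitted on scores up to 2000 (over 99.9% of nonzero scores matched in each S14 library).

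A linear model with a mean-variance trend (limma 3.58.1, R 4.3.3) was fitted to log2(score + 1) of the 6 S14 libraries, with limb and part as terms and the contrast of middle minus the mean of anterior and posterior (2 residual degrees of freedom). The limb comparison had limb, middle and their interaction. Components were called at a Benjamini-Hochberg adjusted p under 0.05 over all tested, two-sided. On the log2(score + 1) scale the size of a difference depends on the pseudocount for low components: it understates a change against low scores, and a mean of logs that includes a 0 can exceed the ratio of reads. Intervals are exact at 95% and cover counting error only.

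The comparison was chosen with earlier results of these data known. Named were at most 2 components per direction and comparison. For both limbs these were called components with the middle outside both neighbours in each limb, ranked by the smaller of the limb differences. For the limb comparison, where none was called, they had the widest interactions. The gene lists planned for limb and cell types were not run, since no identifier paired with a symbol. Alternatives were other pseudocounts, filters, scalings, references, model terms and folds, robust shrinkage, voom, and leaving out each library. Reads, counts and plots were made in Python 3.11.15 (scipy 1.17.1, numpy 2.4.6, matplotlib 3.10.9, pandas 2.3.3).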

Additional observations from a re-analysis of the deposited data

Results flagged for a closer look

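The middle minus outer log2 difference had opposite signs in the 2 limbs for 2 components named for the limb comparison, comp13274_c0 (forelimb minus hindlimb difference of 7.20) and comp6676_c0 (5.50). The forelimb middle of comp13274_c0 lay between its neighbours, the anterior part was at 0, and the read ratio of middle to outer was 0.98 (0.68 to 1.39). Neither difference passed the interaction test in limma (adjusted p = 0.549 and 0.543, with ranges of 0.189 to 0.913 over the settings tried for each), and each limb's value rests on 1 middle library.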

How the results depend on the processing

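The count of 36 called components was 35, 47, 48, 52 and 28 with a pseudocount of 0.25, one of 5, a minimum mean of 100, the anterior part alone and the posterior part alone as reference. It was 6 with upper-quartile scaling, 18 with median-centring, 59 with robust shrinkage, 63 with voom, and 0 with the outer parts as repeats, with no limb term and with no filter. Voom with the outer parts as repeats, added after seeing the data, gave 2. Leaving out 1 library gave 87 to 278. The cause was not tested. For the limb comparison only dropping the filter moved the count of 0, to 3037. It could not be fitted without a middle library. The 2-fold sets of 59 and 36 became 219 and 136 at 1.5-fold, 10 and 9 at 3-fold, 1248 and 1819 with no filter, and 13 and 14 at a minimum mean of 100, and the lower set 63 against the posterior part alone. Leaving out 1 outer library, added after seeing the data, gave 50 to 74 higher and 35 to 47 lower. Limb, taken from the labels, is the block of the model, and the fit with no limb term is the one without it. With 1 library per part, the spread within a part was not measured.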

Other observations

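At an equal depth of 4951054 reads, the middle library had the fewest detected components of its limb: 39841 in forelimb, against 41326 in the anterior and 41157 in the posterior part, and 38451 in hindlimb, against 40572 and 38528. The hindlimb middle and posterior parts thus hardly differed. On the third of 5 principal axes of the bud libraries, with 18.2% of the variance, the 2 middle libraries lay at 33.94 and 18.15 and the 4 outer ones from -21.43 to -4.51. On the second (24.8%) and the fourth axis (12.1%) the middle libraries lay on opposite sides, at 23.54 and -18.88 and at 15.36 and -28.95. The first axis, with 37.7%, had the anterior forelimb at 51.96 and the posterior hindlimb at -34.38 as its ends.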
